A study of Homo sapiens with 6 samples.

Results

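Messenger RNA of 10 amino acid transporter genes was followed in H9 cells, an established human T lymphoma line, after treatment with PA4. The genes were taken by symbol from the deposited count table: SLC7A11, SLC7A5, SLC7A1, SLC7A6, SLC3A2, SLC1A4, SLC1A5, SLC38A1, SLC38A2 and SLC43A1. All 10 were present among the 26485 genes of the table, and all 10 passed the filter on low counts that left 12107 genes for testing. The control group was 3 libraries of H9 cells given the vehicle DMSO. The PA4 group was 3 libraries of H9 cells given PA4, which the series title places among derivatives of berbamine, at 1 µM for 24 h. Both groups are the same unmodified line, described by the labels as cutaneous T lymphocytes, and the submitters state that PA4 causes cell death in it. Whether libraries of a group stand for separate cultures is not stated in the labels. The p-values therefore reflect the spread between these libraries alone, which may be technical.

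Amino acids cross the plasma membrane through carriers that differ in substrate and in driving force. SLC38A1 and SLC38A2 take up small neutral amino acids, glutamine among them, together with sodium. SLC1A4 and SLC1A5 are sodium-dependent exchangers of neutral amino acids, and SLC1A5 is a main route for glutamine. SLC7A5, SLC7A6 and SLC7A11 are light chains that reach the surface bound to the heavy chain SLC3A2 (CD98). SLC7A5 trades large neutral amino acids such as leucine, SLC7A6 trades basic for neutral ones, and SLC7A11 brings in cystine for glutamate and so feeds glutathione synthesis. SLC7A1 carries arginine and lysine alone, and SLC43A1 carries large neutral amino acids without sodium. Several of these genes are known targets of ATF4, the transcription factor of the integrated stress response, which is made when amino acids are scarce or protein folding fails. Activated T cells and some T cell tumours depend on SLC7A5 for growth.

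Library totals ranged from 18282212 to 22875191 counts. T cell markers were abundant, with 16943 to 22129 counts per library summed over 12 genes, although CD2 had at most 1 count and CD4 had 6 to 12. Marker sums were 15 to 36 counts per library for myeloid cells, 12 to 26 for fibroblasts and 0 to 2 for pluripotent stem cells. Of B cell markers, CD79A had 178 to 260 counts and CD79B 151 to 227, while CD22 had 0. EPCAM, with 2387 to 3022 counts, made up most of the epithelial sum. Their part in the results below was not tested.

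None of the 10 transporter genes was called changed with PA4 at an adjusted p under 0.05 in edgeR's quasi-likelihood test, in which 0.231% of all tested genes were called. The greatest difference was that of SLC7A11, 1.29-fold higher with PA4, followed by SLC7A5 at 1.11-fold. At an unadjusted p under 0.05 these 2 of the 10 genes were higher and 0 were lower, against 2.69% and 2.6% of all tested genes. DESeq2 and limma-voom also called 0 of the 10, against 0.322% and 0.223% of all tested genes. The 95% interval of every one of the 10 fold changes lay within 1.5-fold in either direction, as it did for 10543 of all 12107 tested genes. With offsets corrected for the GC content of transcripts, 3 of the 10 were called higher, against 0.867% of all tested genes in that fit. The libraries are bulk samples, so a change in RNA per cell and a change in which cells are present cannot be told apart.

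SLC7A11 (chr4:138164097-138242349, minus strand, GRCh38) encodes the cystine carrier of the group. In control replicates 1 to 3 it stood at 10.9, 11.3 and 12.3 CPM (read counts relative to the TMM-scaled library size), and in PA4 replicates 1 to 3 at 13.3, 15.0 and 16.3 CPM. All 3 PA4 libraries lay above all 3 control libraries. Among the 10 genes it was the 1 whose groups did not overlap, whereas 5.91% of all tested genes had their PA4 libraries wholly above control and 5.31% wholly below. The control mean was 11.5 ± 0.727 CPM (SD, n = 3), against 14.9 ± 1.48 CPM (SD, n = 3) after PA4. The log2 fold change was 0.37 ± 0.09 (SE), with a 95% interval of 0.17 to 0.56, an unadjusted p of 0.00122 and an edgeR adjusted p of 0.247. It rests on 211 to 343 reads per library, and 96.4% of tested genes had a log2 fold change no greater in size. The gene SLC7A11-AS1, which shares 8.97% of the exon bases of SLC7A11 on the other strand, had 0 counts in every library.

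SLC7A5 (chr16:87830023-87869507, minus strand), the leucine exchanger, stood at 461, 429 and 387 CPM in control replicates 1 to 3. With PA4 the values were 482, 487 and 446 CPM. The groups overlapped because PA4 replicate 3 lay below control replicate 1. The log2 fold change was 0.15 ± 0.05 (SE), with a 95% interval of 0.04 to 0.26, an unadjusted p of 0.00953 and an edgeR adjusted p of 0.714. Reads can be shared with the near-identical copies SLC7A5P1 and SLC7A5P2, which were listed with 14 to 31 and 34 to 48 counts per library against 7364 to 11094 for SLC7A5. SLC7A5 also shares 5.71% of its exon bases with AC126696.2 on the opposite strand, which is not among the counted genes. Without control replicate 1 the log2 fold change was 0.21, with an adjusted p of 0.0123, and without control replicate 3 it was 0.085.

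The heavy chain and the remaining light chain differed less between the groups. SLC3A2 (chr11:62856109-62888860, plus strand) was measured at 169, 169 and 156 CPM in control replicates 1 to 3 and at 178, 173 and 164 CPM with PA4. Its control and PA4 libraries overlapped, and its fold change of 1.05 had an interval of 0.981 to 1.11. SLC7A6 (chr16:68264526-68301819, plus strand) was measured at 104, 99.4 and 102 CPM in control and at 101, 103 and 100.5 CPM with PA4, so the PA4 libraries fell inside the control range. Its fold change was 0.995, with an interval of 0.937 to 1.06. SLC7A6 shares 44.4% of its exon bases with SLC7A6OS on the opposite strand, a gene with 301 to 425 counts per library. Whether counting used strand is not given in the sources used here, so reads of this pair may not have been told apart.

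**Figure D1:**
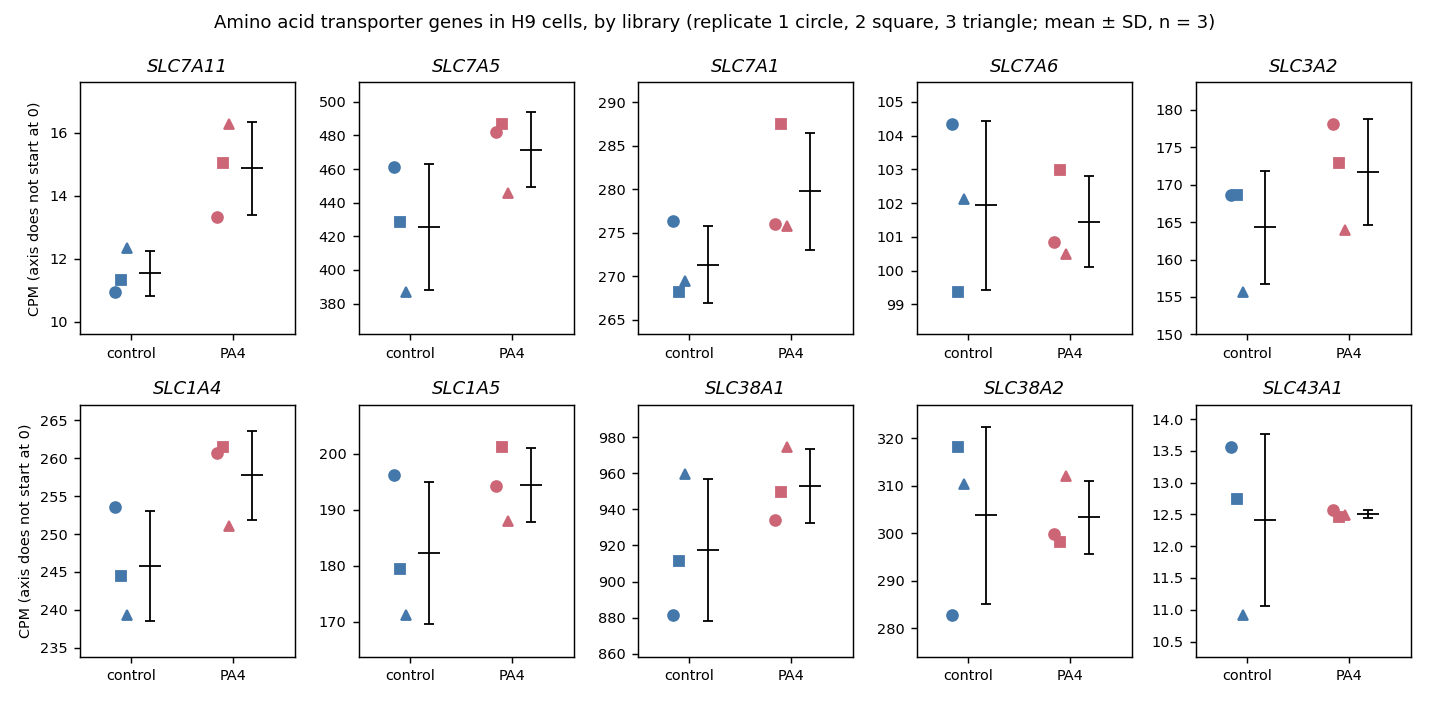
Each panel shows 1 transporter gene, with CPM on a vertical axis that does not start at 0, 3 control libraries in blue, 3 PA4 libraries in red, and the mean with its SD in black. In SLC7A11 the PA4 libraries, at 13.3 to 16.3 CPM, lie above the control libraries, at 10.9 to 12.3 CPM, and in the other 9 genes the groups overlap.

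The sodium-dependent exchangers had small positive differences. SLC1A5 (chr19:46774883-46788594, minus strand) stood at 196, 179 and 171 CPM in control replicates 1 to 3 and at 194, 201 and 188 CPM with PA4. Control replicate 1 lay within the PA4 range and the other control libraries below it. The log2 fold change was 0.094 ± 0.047 (SE), with an interval that included 0 and an edgeR adjusted p of 0.961. SLC1A5 shares 23.4% of its exon bases with AC008622.2 on the opposite strand, which is not among the counted genes. Reads of AC008622.2 may therefore have been counted for SLC1A5 if strand was not used. SLC1A4 (chr2:64988479-65023865, plus strand), which also carries serine and alanine, stood at 254, 244 and 239 CPM in control and at 261, 262 and 251 CPM with PA4. Its groups overlapped only through control replicate 1 and PA4 replicate 3, and its log2 fold change was 0.069 ± 0.036 (SE).

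The sodium-coupled carriers SLC38A1 and SLC38A2 lie near each other on chromosome 12, at chr12:46183063-46269043 and chr12:46358188-46372773, both on the minus strand. SLC38A1 stood at 882, 911 and 959 CPM in control and at 934, 950 and 975 CPM with PA4, with overlapping groups and a fold change of 1.04, interval 0.990 to 1.09. SLC38A2, whose messenger RNA is known to increase when cells lack amino acids, stood at 283, 318 and 310 CPM in control and at 299.8, 298 and 312 CPM with PA4. The PA4 libraries of SLC38A2 fell inside the control range, and the fold change was 0.998, interval 0.939 to 1.06.

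SLC7A1 (chr13:29509414-29595688, minus strand), the arginine and lysine carrier, stood at 276, 268 and 269 CPM in control and at 276, 287 and 276 CPM with PA4. It was the steadiest of the 10 within control, with a coefficient of variation of 1.63%, and its fold change was 1.03, interval 0.981 to 1.08. SLC43A1 (chr11:57484534-57515702, minus strand) stood at 13.6, 12.7 and 10.9 CPM in control and at 12.6, 12.5 and 12.5 CPM with PA4. Its PA4 libraries were closer together, with a coefficient of variation of 0.487% against 10.9% in control, a difference that was not tested. After GC correction the SD was 0.305 CPM with PA4 and 0.739 CPM in control, against 0.0609 and 1.35 CPM before it. The fold change of SLC43A1, 1.01, had an interval of 0.880 to 1.15. With 208 to 284 reads per library, SLC43A1 had a precision similar to that of SLC7A11, a standard error of 0.093 against 0.094 log2.

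Over the 10 genes, 8 had a positive log2 fold change, and the median was 0.059. Over all tested genes 47.6% were positive and the median was -0.0040.

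The transporters differed far more among themselves than between the groups. Levels were compared per kilobase of the deposited gene length, as CPM per kilobase. SLC7A5 and SLC38A1 were at the top, at 93.6 ± 8.22 and 92.0 ± 3.93 CPM per kilobase in control (SD, n = 3), and their control libraries overlapped. SLC38A2, SLC1A5 and SLC3A2 followed at 62.2 ± 3.79, 56.9 ± 3.97 and 56.6 ± 2.59, with neighbours again overlapping. SLC1A4, at 51.4 ± 1.51, SLC7A1, at 36.9 ± 0.602, and SLC7A6, at 16.0 ± 0.392, were each apart from their neighbours in the order. SLC43A1 stood at 4.70 ± 0.513 CPM per kilobase and SLC7A11 last at 1.20 ± 0.0753. The order of the 10 means was the same with PA4, where SLC7A5 no longer overlapped SLC38A1, at 103.8 ± 4.90 against 95.5 ± 2.06 CPM per kilobase. Their nearest PA4 libraries were at 98.1 and 97.7, and the order of these 2 genes depends on the length used. With the length of the principal transcript SLC38A1 stood above SLC7A5 in control, at 113.7 against 93.8 CPM per kilobase. The control order of SLC38A2, SLC1A5 and SLC3A2 was also reversed with that length, with SLC3A2 at 76.0, SLC1A5 at 63.3 and SLC38A2 at 62.1. Among all tested genes, SLC7A5 and SLC38A1 lay at percentiles 94.7 and 94.3 of the level per kilobase, and SLC7A11 at percentile 17.6.

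**Figure D2:**
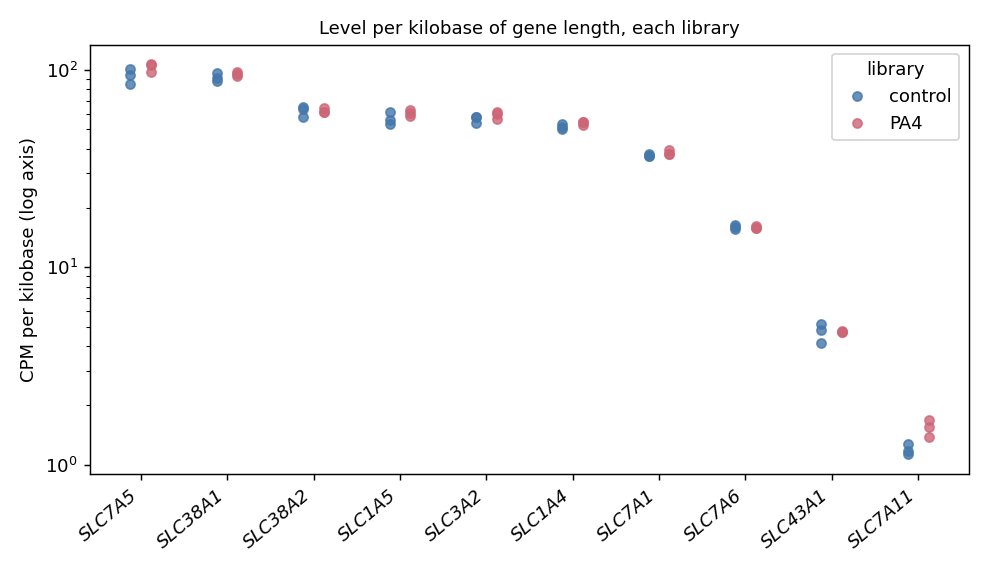
Levels of the 10 genes in CPM per kilobase of gene length on a log axis, with each control library in blue and each PA4 library in red. The genes run from 93.6 CPM per kilobase in control for SLC7A5 down to 1.20 for SLC7A11, and the distance between groups within a gene is small beside the distance between genes.

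SLC3A2 must be shared among its light chains, so their levels per kilobase were set side by side. Heavy chain RNA per summed light chain RNA of SLC7A5, SLC7A6 and SLC7A11 was 0.488, 0.523 and 0.523 in control replicates 1 to 3 and 0.497, 0.477 and 0.489 with PA4. The ranges overlapped. SLC7A5 made up 84.4% ± 1.17 of the summed light chain RNA in control and 85.6% ± 0.604 with PA4 (SD, n = 3 each). SLC7A6 made up 14.5% ± 1.02 in control and 13.2% ± 0.437 with PA4, and its share was lower in each PA4 library, at 12.87%, 12.98% and 13.67%, than in each control library, at 13.8%, 14.1% and 15.7%. An exact permutation test of 3 libraries against 3 cannot give a two-sided p under 0.1, so this was left as a description, and the shares were not corrected for GC content. SLC7A11 made up 1.09% ± 0.151 in control and 1.28% ± 0.171 with PA4, again with overlapping libraries. The other known partners of SLC3A2 were near 0, with 1 to 7 counts per library for SLC7A7, at most 1 for SLC7A8 and 0 for SLC7A10.

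Libraries of the control group differed in a way that followed base composition, and the transporters span a wide range of it. Transcript GC content was 35.4% in SLC7A11, 38.1% in SLC38A2 and 41.3% in SLC38A1, and 61.1% in SLC7A5 and 61.3% in SLC1A5. The log2 ratio between control replicates 1 and 3 (the former over the latter) was -0.18 for SLC7A11, -0.13 for SLC38A2 and -0.12 for SLC38A1. It was 0.25 for SLC7A5, 0.20 for SLC1A5 and 0.31 for SLC43A1, whose GC content was 58.2%. Across the 10 genes this ratio had a Spearman rho of 0.939 with GC content. Across 8498 genes with known GC content and at least 10 CPM on average the rho was 0.798. These are correlations over genes of the same 2 libraries, and genes are not independent replicates. Control replicates 1 and 3 were also the least alike of all pairs of libraries (6.81 for chi-square over its degrees of freedom). For SLC7A5 and SLC1A5 the gap between these 2 control libraries was greater than the difference between the group means, at 0.25 against 0.15 and 0.20 against 0.094 log2. In size, the gap was also the greater for SLC7A6, SLC3A2, SLC1A4, SLC38A1, SLC38A2 and SLC43A1. It was the smaller for SLC7A11, at 0.18 against 0.37, and for SLC7A1, at 0.037 against 0.045. The gap sets single libraries of the most divergent pair against a difference between means of 3, so it does not stand for the usual spread within control. No share over all tested genes was taken for this comparison.

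**Figure D3:**
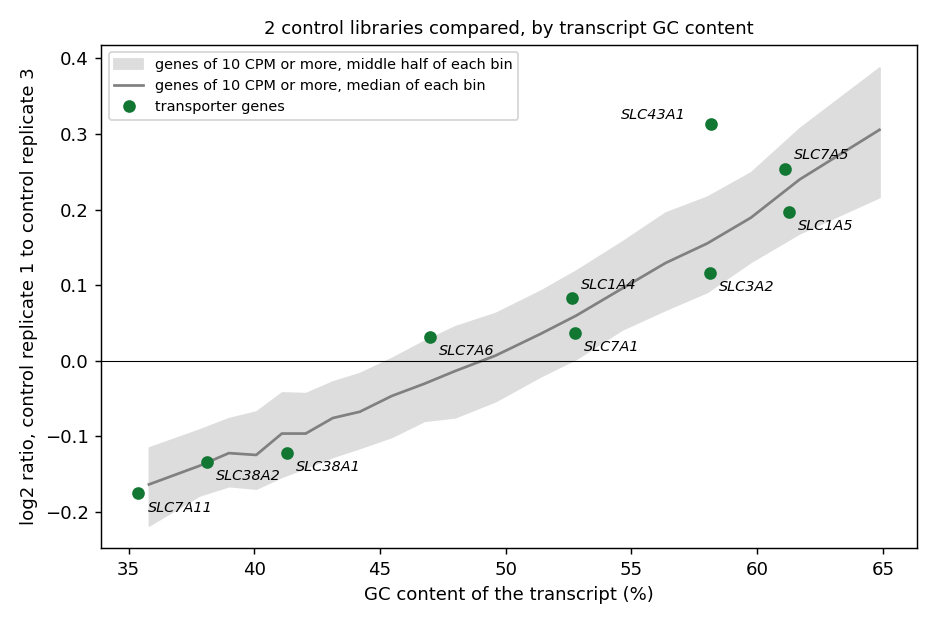
The horizontal axis is the GC content of the transcript in percent and the vertical axis the log2 ratio of control replicate 1 over control replicate 3. The grey line and band give the median and middle of the distribution over the 8498 genes with known GC content and at least 10 CPM on average, in bins of GC content, and the green points are the 10 transporters, from -0.18 for SLC7A11 to 0.31 for SLC43A1.

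When offsets were corrected for each library's trend with GC content, the SD became smaller in control for 9 of the 10 transporters and with PA4 for 8 of the 10. The trend was fitted to and removed from these same libraries, so a smaller SD is partly built in. No share over all tested genes was taken for it. SLC7A5 then stood at 421, 432 and 413 CPM in control replicates 1 to 3 and at 482, 476 and 463 CPM with PA4, with no overlap. In this fit SLC7A5 rose by 0.17 ± 0.02 log2 (SE; edgeR adjusted p = 3.08e-05). SLC7A11 rose by 0.38 ± 0.08 log2 (SE; adjusted p = 0.00796), from corrected values of 11.5, 11.2 and 11.7 CPM to 13.6, 15.3 and 15.9 CPM. SLC1A5 rose by 0.11 ± 0.03 log2 (SE; adjusted p = 0.0213), from 179, 181 and 183 CPM to 194, 197 and 196 CPM. These were 3 of the 10 transporters, where 0.867% of all tested genes were called higher in the same fit. After correction the PA4 libraries lay above all control libraries in 6 of the 10 genes, the further ones being SLC7A1, SLC1A4 and SLC38A1, against 9.12% of all tested genes. SLC3A2, SLC7A6, SLC38A2 and SLC43A1 still overlapped. SLC38A2 and SLC7A6 stayed close to 0, at 0.0083 ± 0.026 and -0.0075 ± 0.033 log2 (SE).

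**Figure D4:**
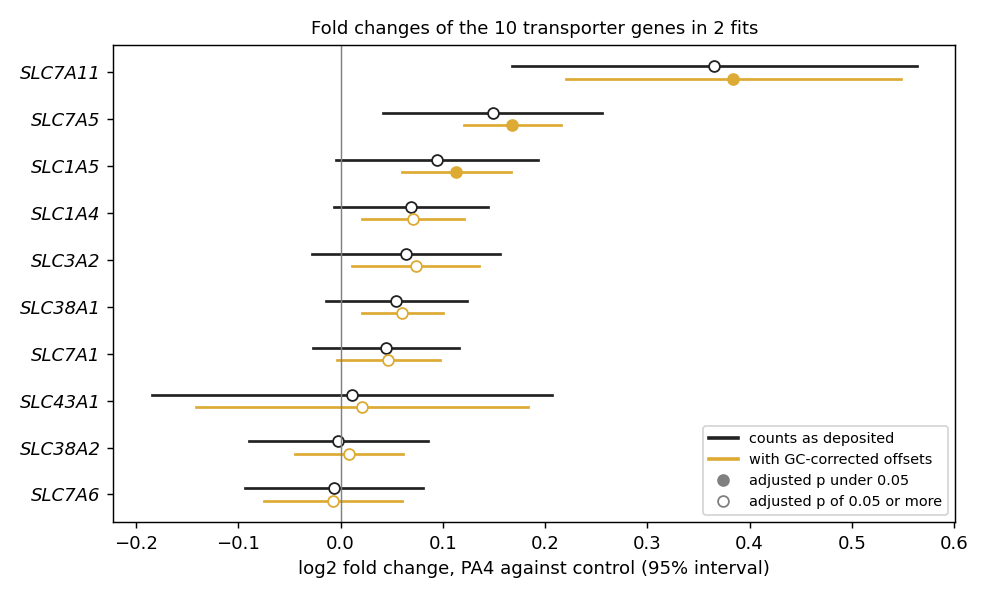
Log2 fold changes of PA4 against control with 95% intervals, in black for the counts as deposited and in yellow with GC-corrected offsets, where filled points have an adjusted p under 0.05. The estimates move little between the fits, as in SLC7A5 at 0.15 and 0.17, while the intervals narrow, and filled points appear for SLC7A11, SLC7A5 and SLC1A5 with the correction.

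**Figure D5:**
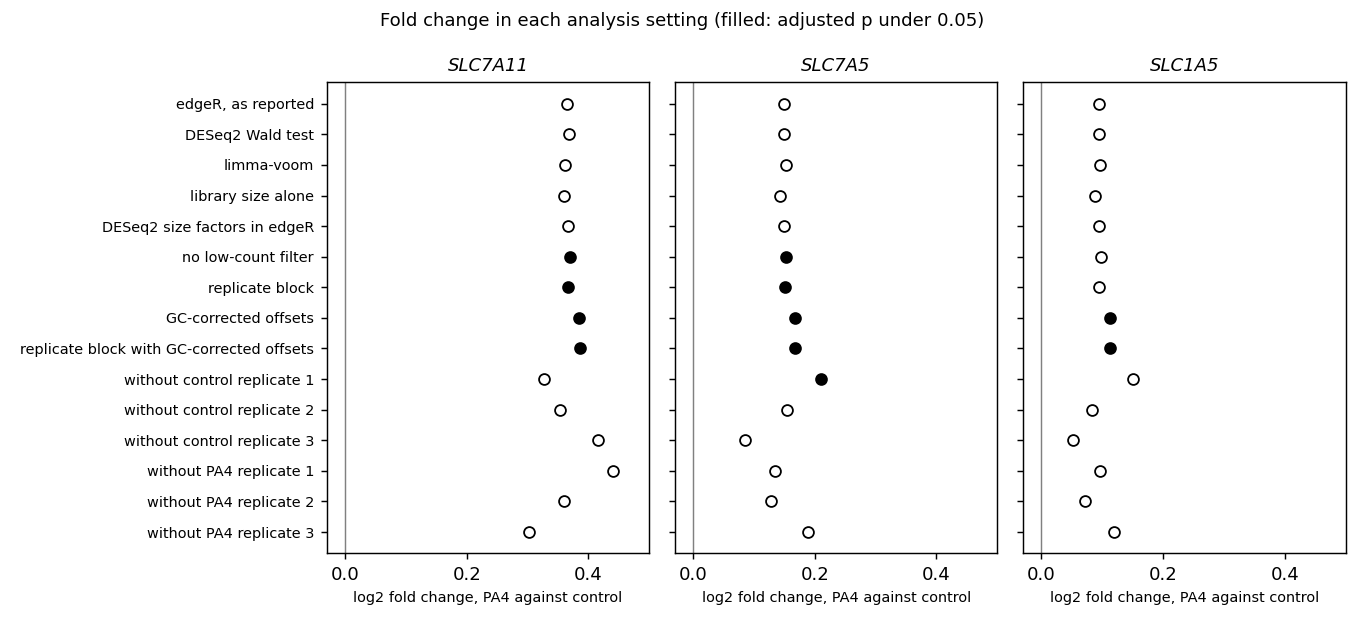
Log2 fold changes of SLC7A11, SLC7A5 and SLC1A5 in the reported fit and in 14 other settings, filled where the adjusted p was under 0.05. All values are above 0, from 0.30 to 0.44 for SLC7A11, from 0.085 to 0.21 for SLC7A5 and from 0.052 to 0.15 for SLC1A5.

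Across these settings the size of the SLC7A11 difference was steadier than its adjusted p, which also depends on the other tested genes. Its unadjusted edgeR p ranged from 4.54e-05 with GC-corrected offsets to 0.00917 without PA4 replicate 3. Its log2 fold change ranged from 0.30 without PA4 replicate 3 to 0.44 without PA4 replicate 1, and its adjusted p from 0.00796 with GC-corrected offsets to 0.866 without PA4 replicate 2. SLC7A5 had its lowest value without control replicate 3 and its highest without control replicate 1, the pair of libraries with the highest chi-square per degree of freedom, 6.81.

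The response element bound by ATF4 with its C/EBP partners has the core TGATGNAA. It was searched on both strands of RefSeq promoter windows (GRCh38.p14), each from 250 bases before to 50 bases after an annotated start. Windows were found for 9 of the 10 genes, and SLC7A11 had no entry. A match was present in 5 of 16 windows, belonging to 5 genes, while 3.62% of all 35116 windows held one. The stretches around the matches are shown because several of the 10 genes are known targets of ATF4. Each is in the direction of its gene, with the match in capitals.
SLC7A1: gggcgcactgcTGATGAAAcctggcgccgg
SLC3A2: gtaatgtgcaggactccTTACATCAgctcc
SLC1A4: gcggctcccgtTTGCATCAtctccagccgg
SLC1A5: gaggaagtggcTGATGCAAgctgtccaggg
SLC38A1: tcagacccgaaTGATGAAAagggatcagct
These lie at chr13:29595663-29595692, chr11:62881719-62881748, chr2:64989381-64989410, chr19:46784893-46784922 and chr12:46266502-46266531 in that order. The match in SLC3A2 and SLC1A4 is on the strand opposite to the gene. SLC1A5 and SLC3A2, with 3 windows each, and SLC1A4 and SLC38A1, with 2 each, held the match at 1 of them. No match was found in SLC43A1, with 2 windows, or in SLC7A5, SLC7A6 and SLC38A2, with 1 window each. A match is a description of the letters and not a measured binding site. Of the genes with a match, SLC1A5 was called in the GC-corrected fit and SLC7A1, SLC3A2, SLC1A4 and SLC38A1 were not, and SLC7A5 was called there without a match in its window.

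Other carriers of amino acids were read from lists. Of 21 further transporters of the plasma membrane, 4 had enough counts to be tested: SLC6A6, SLC16A10, SLC38A5 and SLC43A2. None was called or reached an unadjusted p under 0.05, and the median of the 4 was 0.0039 log2. Beside this and the 2 lists below, 0.231% of all tested genes were called. At an unadjusted p under 0.05, 2.69% of all tested genes were higher and 2.6% lower. SLC38A5, a glutamine and serine carrier with 1710 to 2244 counts per library, was at -0.031 ± 0.057 log2 (SE), and the taurine carrier SLC6A6 at -0.0073 ± 0.043. SLC16A10, a carrier of aromatic amino acids, was at 0.015 ± 0.077, and SLC43A2, a carrier of large neutral amino acids named after its values were seen, at 0.038 ± 0.17. Lysosomal carriers had 0 of 8 called and a median of -0.011, with SLC15A4 highest at 0.078 ± 0.078, SLC36A4 next at 0.056 ± 0.094 and MFSD12 lowest at -0.081 ± 0.084. Mitochondrial carriers had 0 of 9 called and a median of 0.014, from SLC25A39 at -0.054 ± 0.065 to SLC25A15 at 0.036 ± 0.054 and SLC25A44 at 0.041 ± 0.053. In all 21 tested carriers of these lists the interval lay within 1.5-fold, as it did in 10543 of all 12107 tested genes.

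Genes that respond to ATF4 were compared from a list of 34 targets and regulators, of which 29 were tested. In edgeR 0 were called, against 0.231% of all tested genes. An unadjusted p under 0.05 was reached by 5, all of them higher, where 2.69% of all tested genes were higher and 2.6% lower at that p, and the list's median was 0.040 log2. TRIB3, a pseudokinase induced by ATF4 and CHOP, was at 0.23 ± 0.07 log2 (SE), ATF5, a related transcription factor, at 0.11 ± 0.04, and PCK2, a mitochondrial enzyme of phosphoenolpyruvate synthesis, at -0.095 ± 0.085. Named after their values were seen, ATF4 itself was at -0.015 ± 0.034 and DDIT3, the gene of CHOP, at 0.10 ± 0.13. Also named after their values were seen, ATF3, a stress-induced transcription factor, was at 0.46 ± 0.18 and PPP1R15A, a phosphatase subunit that reverses the stress response, at 0.24 ± 0.10 log2 (SE). The PA4 libraries lay wholly above control for both, as in 4 of the 29 genes of the list, against 5.91% of all tested genes. Neither ATF3 nor PPP1R15A was called, with edgeR adjusted p of 0.829 and 0.879. A positive log2 fold change was found in 20 of the 29, against 47.6% of all tested genes. Among the others were SESN2 at -0.086 ± 0.090 and CEBPB at -0.060 ± 0.109 log2 (SE), also named after their values were seen. ATF3 averaged 2.46 CPM in control and 3.40 CPM in PA4 libraries. With GC-corrected offsets 3 of the 29 were called higher, TRIB3, ATF5 and the asparagine synthetase gene ASNS, and 0 lower, where 0.867% of all tested genes were called higher. ASNS was named after its values were seen.

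Aminoacyl-tRNA synthetases charge transfer RNA with the amino acids that these carriers bring in. Of 20 tested, 0 were called, against 0.231% of all tested genes, and their median was 0.015 log2. Of these 20 genes, 4 reached an unadjusted p under 0.05, all of them higher, against 2.69% of all tested genes. WARS, for tryptophan, was highest at 0.12 ± 0.03, followed by AARS, for alanine, at 0.096 ± 0.042, and DARS, for aspartate, lowest at -0.064 ± 0.038 log2 (SE). With GC-corrected offsets WARS and GARS, for glycine, were called higher, against 0.867% of all tested genes, and GARS was named after its values were seen. In the list of cystine and glutathione metabolism 1 of 18 genes was called, against 0.231% of all tested genes. This was TXNRD1, the thioredoxin reductase, which rose from 514.8 ± 13.3 CPM in control to 575.9 ± 3.86 CPM (SD, n = 3 each; edgeR adjusted p = 0.0328). It was no longer called when control replicate 2 or any single PA4 library was left out. GCLC, which makes the first intermediate of glutathione, was at 0.12 ± 0.04 log2 (SE). With GC-corrected offsets 2 of the 18 were called higher, TXNRD1 and GCLC, against 0.867% of all tested genes. NQO1, a quinone reductase, was at 0.12 ± 0.06 with PA4 libraries wholly above control, while GPX4, which uses glutathione against lipid peroxides, was at -0.031 ± 0.047. Of the 18 genes, 5 had PA4 libraries wholly above control, against 5.91% of all tested genes. An unadjusted p under 0.05 in edgeR was reached by 3 of the 18, all of them higher, against 2.69% of all tested genes. In the list of amino acid sensing by mTORC1, 0 of 30 genes were called and 0 had an unadjusted p under 0.05, with a median of -0.014. Over all tested genes 0.231% were called, and 2.69% were higher and 2.6% lower at that unadjusted p. LAMTOR2, a lysosomal scaffold subunit, was at 0.087 ± 0.071, FNIP2, a folliculin partner, at 0.064 ± 0.075 and MLST8, an mTOR partner, at -0.12 ± 0.08 log2 (SE).

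The pattern of SLC7A11 over the 6 libraries was compared with that of 8563 other genes averaging at least 10 CPM, by the root mean square difference of mean-centred log2 CPM. The closest were SLC2A3, a glucose transporter, at 0.079 log2, ELOVL6, a fatty acid elongase, at 0.085, and SQLE, squalene epoxidase of sterol synthesis, at 0.089. Their log2 differences between PA4 and control, which the choice by likeness to SLC7A11 sets in direction, were 0.27 ± 0.05, 0.38 ± 0.07 and 0.48 ± 0.04 log2 (SE).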

How the data were processed

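Polyadenylated RNA of 6 H9 libraries was sequenced. The deposited table holds raw read counts per gene symbol and the gene length in bases, with 1 column per library. The submitters' processing notes name Trimmomatic 0.39, fastp 0.23.2, STAR 2.7.9a and featureCounts of Subread 1.6.4, with build hg38. The annotation, strand setting and treatment of multiply aligned reads were not stated there.

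Counts were tested in R 4.3.3 with edgeR 4.0.16 (filterByExpr, TMM, glmQLFit and glmQLFTest, two-sided, all 6 libraries, no covariate), adjusted by Benjamini-Hochberg over 12107 genes and called under 0.05. Standard errors come from the F statistic. The procedure was tested on simulated data. GC content is that of the principal transcript in GENCODE 29; correction used a lowess of each library's deviation, span 0.3. Alternatives were DESeq2 1.42.0, limma-voom (limma 3.58.1), other scaling, no filter, a replicate block and leaving out each library. No pair of libraries matched within sampling noise (chi-square over its degrees of freedom, 1.48 to 6.81).

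Members and gene lists were chosen with earlier results of these data known, including the GC trend. The named genes are the 10 members, and of each other list its called genes, the 2 highest and the 1 lowest of those not called with a mean of 10 CPM or more, and the 3 genes closest in pattern to the member with the largest fold change. List genes marked in the text as named after their values were seen fall outside this rule. Of 198 list entries, 176 matched by symbol and 22 by an older name.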

Additional observations from a re-analysis of the deposited data

How the results depend on the processing

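Against 28 genes called as reported, dropping the low-count filter gave 62, the replicate block 59, GC-corrected offsets 128 and the block with GC-corrected offsets 134, and leaving out 1 library gave 17 to 74. Of the 10 transporters 0 were called in the reported fit, 2 without the filter and 2 with the replicate block (SLC7A11 and SLC7A5 in both), 3 with GC-corrected offsets, 3 with the block and GC correction, and 0 to 1 without 1 library. From the other gene lists together 1 was called, against 3 without the filter, 3 with the block, 7 with GC-corrected offsets, 7 with both, and 0 to 3 without 1 library. The causes were not tested. Same-numbered libraries had deviations that correlated at 0.162, -0.0881 and 0.417, and not every library correlated best with its own number, so the numbers were not taken to pair the libraries. For SLC7A11 the adjusted p was 0.0355 without the filter, 0.0467 with the replicate block and 0.0119 with the block and GC correction. For SLC7A5 these were 0.00503, 0.0166 and 5.82e-05. The sign of SLC38A2 turned to 0.0014 without the filter, 0.0083 with GC-corrected offsets and 0.0084 with both, and ranged from -0.052 to 0.033 without 1 library. Those of SLC7A6, from -0.024 to 0.010, and SLC43A1, from -0.072 to 0.080, also turned without 1 library. The other 7 transporters kept a positive sign in all 14 settings. With the length of the principal transcript, chosen after the data were seen, SLC38A1 stood first at 113.7 CPM per kilobase in control. SLC3A2 was at 76.0, SLC1A5 at 63.3, SLC38A2 at 62.1 and SLC1A4 at 53.9 CPM per kilobase. Levels per coding length were not computed. SLC7A11 and SLC43A1, with 208 to 343 counts per library, had the widest intervals of the 10, with standard errors of 0.094 and 0.093 log2 against at most 0.051 in the others.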
